A study of Mus musculus with 8 samples.

Results

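The genes of MHC class II antigen presentation were followed in bulk RNA-seq of splenic B cells from 8 transgenic mice. The 10 genes were taken by symbol from the matrix of counts, which holds 24902 symbols, and all 10 had a value in all 8 libraries and passed the filter on low counts that left 13173 genes for testing. They are Ciita, Cd74, the chain genes H2-Aa, H2-Ab1 and H2-Eb1, and the peptide loading genes H2-DMa, H2-DMb1, H2-DMb2, H2-Oa and H2-Ob. The mice carried Eµ-hPRMT5 (Eµ-PRMT5, n = 4), both Eµ-hPRMT5 and hTCL1 (Eµ-PRMT5/TCL1, n = 3), or Eµ-hTCL1 (Eµ-TCL1, n = 1), on a strain labelled C57BL/6N. All were diseased animals killed at early removal criteria (ERC), and their age is not in the labels. The sample titles hold L31 for Eµ-PRMT5 mouse 3 and L32 for Eµ-PRMT5 mouse 4. The study describes a mouse L31 with anaplastic large lymphocytes and histiocytes, and a mouse L32 with small lymphocytes. Whether these are the same animals is not stated, and the Eµ-PRMT5 mice may differ in disease. Human PRMT5, an arginine methyltransferase, is driven in these mice by an immunoglobulin heavy-chain promoter and the Eµ enhancer, which act in B cells, and TCL1 is an oncogene whose B-cell expression gives a chronic lymphocytic leukemia (CLL)-like disease. No mice without a transgene were analysed here. The B cells were enriched with a pan-B kit and were not sorted for leukemic cells, and a sample is 1 mouse.

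Class II molecules carry peptides from the endosomal pathway to the surface of B cells, dendritic cells and macrophages, where CD4 T cells read them. An alpha and a beta chain (H2-Aa with H2-Ab1 for I-A) assemble on the invariant chain Cd74, whose remnant is exchanged for antigenic peptide with the help of H2-DM, and H2-O, expressed mainly in B cells, holds H2-DM back. Most of these genes share an upstream module of an X box, bound by RFX and CREB factors, and a Y box, bound by NF-Y, on which the coactivator Ciita is recruited.

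That shared module is shown here because the results turn on how closely the genes followed each other from mouse to mouse. RefSeq promoter windows (GRCm38.p6, from 250 bases before to 50 after a gene start) were found for 7 of the 10 genes, and not for Ciita, Cd74 and H2-Ab1. Capitals mark the Y box letters TGATTGG and, upstream of it, the X box letters AACNNATGA or, in H2-Aa, the CREB site TGACGTCA. Each stretch of 60 bases reads 5′ to 3′ on the coding strand and ends before the start of the gene in RefSeq, which differs from that in GENCODE for some genes.
H2-Eb1 (chr17:34305763-34305822, plus strand): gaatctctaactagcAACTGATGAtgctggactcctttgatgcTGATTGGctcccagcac
H2-DMb1 (chr17:34153085-34153144, plus strand): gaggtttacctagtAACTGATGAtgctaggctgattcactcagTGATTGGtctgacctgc
H2-DMb2 (chr17:34145114-34145173, plus strand): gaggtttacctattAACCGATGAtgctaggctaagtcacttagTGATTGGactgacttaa
H2-Ob (chr17:34238803-34238862, plus strand): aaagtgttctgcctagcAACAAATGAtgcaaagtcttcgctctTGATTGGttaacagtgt
H2-Aa (chr17:34287857-34287916, minus strand): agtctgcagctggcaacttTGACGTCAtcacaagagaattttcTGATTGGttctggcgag
H2-Oa (chr17:34092291-34092350, plus strand): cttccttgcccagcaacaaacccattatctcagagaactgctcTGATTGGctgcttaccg

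On either strand, TGATTGG was found in 7.817% of the 32851 windows of all genes, and in the windows of these 6 genes. The letters AACNNATGA were found in 2.846% of windows, and TGACGTCA in 1.79%. AACNNATGA followed within 40 bases by TGATTGG was found in windows of 11 of 27025 genes, of which 4 were H2-Eb1, H2-DMb1, H2-DMb2 and H2-Ob. From the first base of the one to the first base of the other there were 28, 29, 29 and 26 bases, in that order. H2-DMb1 and H2-DMb2 are neighbouring copies, and 51 of the 60 bases printed for them were the same. Both H2-DMa windows held none of these letters. The letters were chosen with these sequences in view, and a match describes the sequence only.

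Reads on genes numbered from 3356297 in the Eµ-TCL1 mouse to 10252426 in Eµ-PRMT5 mouse 4. Between 1.14% (in Eµ-PRMT5 mouse 4) and 3.33% (in Eµ-PRMT5/TCL1 mouse 2) of the counts on symbols complete in all libraries fell on the 10 genes, with 37 counts in the lowest cell (H2-Oa in the Eµ-TCL1 mouse) and 142214 in the highest (Cd74 in Eµ-PRMT5/TCL1 mouse 2). Mouse Prmt5 measured 62.7 to 235 CPM (counts relative to the TMM-scaled library total) across Eµ-PRMT5 mice, 110 to 126 across Eµ-PRMT5/TCL1 mice and 79.5 with Eµ-TCL1 alone, but whether reads of the human transgene count there is not stated, so it does not check the labels. Eµ-PRMT5 mouse 4 stood apart in its cell type markers. The 10 B cell markers summed to 2369 CPM there and to between 4438 and 10211 CPM in the other mice.

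Levels between genes were compared as CPM per kilobase of annotated exons. Cd74 was the most abundant of the 10 in all 8 mice and H2-Ab1 the second, with 10417 ± 1916 and 2242 ± 51.4 CPM per kilobase (SD, n = 3) in the Eµ-PRMT5/TCL1 mice. H2-Eb1 (818 ± 85.0), H2-Aa (768 ± 90.4) and H2-DMb2 (690 ± 192 CPM per kilobase) came next and lay within each other's spread. H2-DMb1 at 227 ± 87.1 and H2-DMa at 187 ± 15.8 CPM per kilobase also lay within that spread of each other, as did H2-Ob at 65.7 ± 17.8 and H2-Oa at 57.0 ± 16.3. Ciita, a regulator, had the lowest level in these mice at 22.2 ± 5.45 CPM per kilobase. In the Eµ-PRMT5 mice, Cd74 was at 8126 ± 2555 and H2-Ab1 at 1884 ± 869 CPM per kilobase (SD, n = 4), and in the Eµ-TCL1 mouse they were at 5616 and 1379, with H2-Oa lowest at 7.11. The order below the first 2 genes depends on the length used. Per kilobase of the longest transcript, H2-Ob (132 ± 35.8) and H2-Oa (59.8 ± 17.1) no longer lay within each other's spread in the Eµ-PRMT5/TCL1 mice, H2-DMa (321.8 ± 27.3) came before H2-DMb1 (272 ± 104), and H2-Ab1 was at 4750 ± 109. In GENCODE vM21 (GRCm38) the 8 H2 genes lie on chromosome 17 between base 34092340, the start of H2-Oa, and base 34316674, the end of H2-Eb1, while Ciita lies on chromosome 16 (bases 10480059 to 10528418) and Cd74 on chromosome 18 (bases 60803848 to 60812652).

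**Figure D1:**
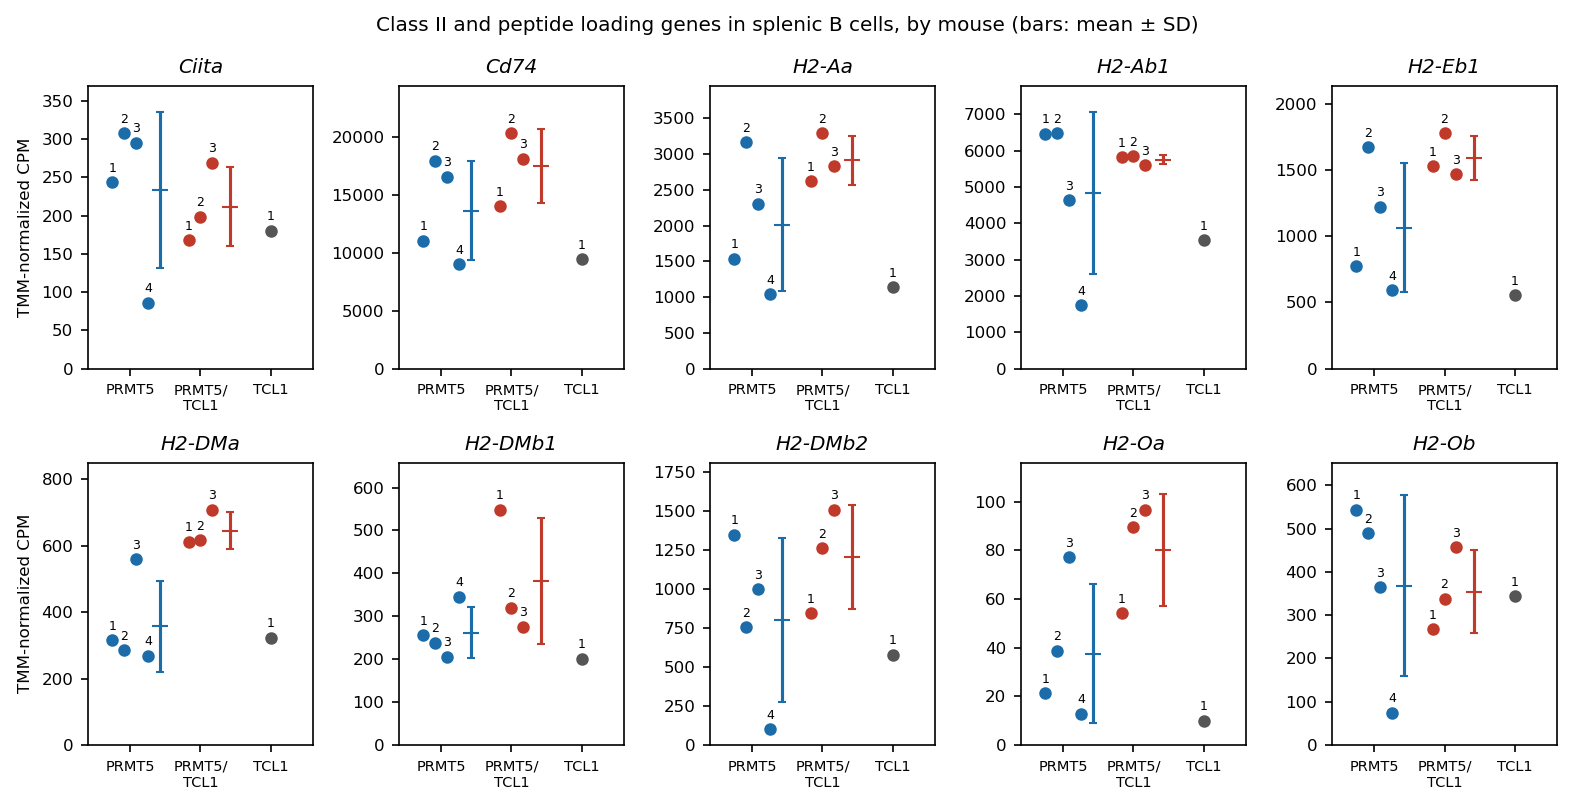
TMM-normalized CPM (vertical axes, starting at 0) of each of the 10 genes in each mouse, numbered within its genotype, with bars for the mean ± SD of the replicated groups. Eµ-PRMT5 mouse 4 is the lowest of the 8 mice in 7 panels, whereas in the H2-DMb1 panel it is the highest of its group at 345 CPM. The share of all genes for which that mouse was lowest was not counted.

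H2-Aa and H2-Ab1, the alpha and beta chains of I-A, had their highest mean and smallest SD over all mice in the Eµ-PRMT5/TCL1 mice (2917 ± 343 and 5757 ± 132 CPM, n = 3, against 2012 ± 928 and 4837 ± 2232 CPM, n = 4, in the Eµ-PRMT5 mice). H2-Aa measured 1534, 3166, 2306 and 1044 CPM in Eµ-PRMT5 mice 1 to 4, 2623, 3295 and 2833 CPM in Eµ-PRMT5/TCL1 mice 1 to 3 and 1137 CPM in the Eµ-TCL1 mouse. All Eµ-PRMT5/TCL1 mice lay above the Eµ-TCL1 mouse, and the 2 PRMT5 genotypes overlapped. H2-Ab1 measured 6466, 6487, 4646 and 1749 CPM in Eµ-PRMT5 mice 1 to 4, 5819, 5845 and 5605 with TCL1 added, and 3542 with TCL1 alone. Its coefficient of variation was 2.29% among the 3 Eµ-PRMT5/TCL1 mice and 46.2% among the 4 Eµ-PRMT5 mice, whose range held the values of both other genotypes. Without Eµ-PRMT5 mouse 4 the coefficient was 18.0% and the mean of the other 3, 5866 ± 1057 CPM, was above that of the Eµ-PRMT5/TCL1 mice, while H2-Aa was at 2335 ± 816 CPM. In bulk RNA, fewer cells of a type and less RNA per cell cannot be told apart.

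H2-Eb1, the beta chain of I-E, followed H2-Aa closely. It measured 772, 1672, 1223 and 593 CPM in Eµ-PRMT5 mice 1 to 4, 1526, 1778 and 1467 with TCL1 added, and 554 with TCL1 alone. The Eµ-TCL1 mouse was the lowest of the 8 and the other 2 genotypes overlapped. The ratio of H2-Aa to H2-Eb1 counts, which no scaling between libraries enters, stayed between 1.72 and 2.05 in the 8 mice, so that its highest value was 1.19 times its lowest.

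The ratio of H2-Aa to its partner H2-Ab1 varied more, by 2.52 times. It was 0.237 in Eµ-PRMT5 mouse 1 and 0.321 in the Eµ-TCL1 mouse, and between 0.451 and 0.597 in the other 6. H2-Eb1 to H2-Ab1 gave the same pair of low mice, at 0.119 and 0.156 against 0.258 to 0.339. The 3 Eµ-PRMT5/TCL1 mice were thus not among the low ones, and in both ratios they overlapped with the Eµ-PRMT5 mice. Eµ-PRMT5 mouse 1 had a value for 16379 symbols, against 20411 to 21475 in the other libraries, and the part of this difference in the ratios was not tested.

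**Figure D2:**
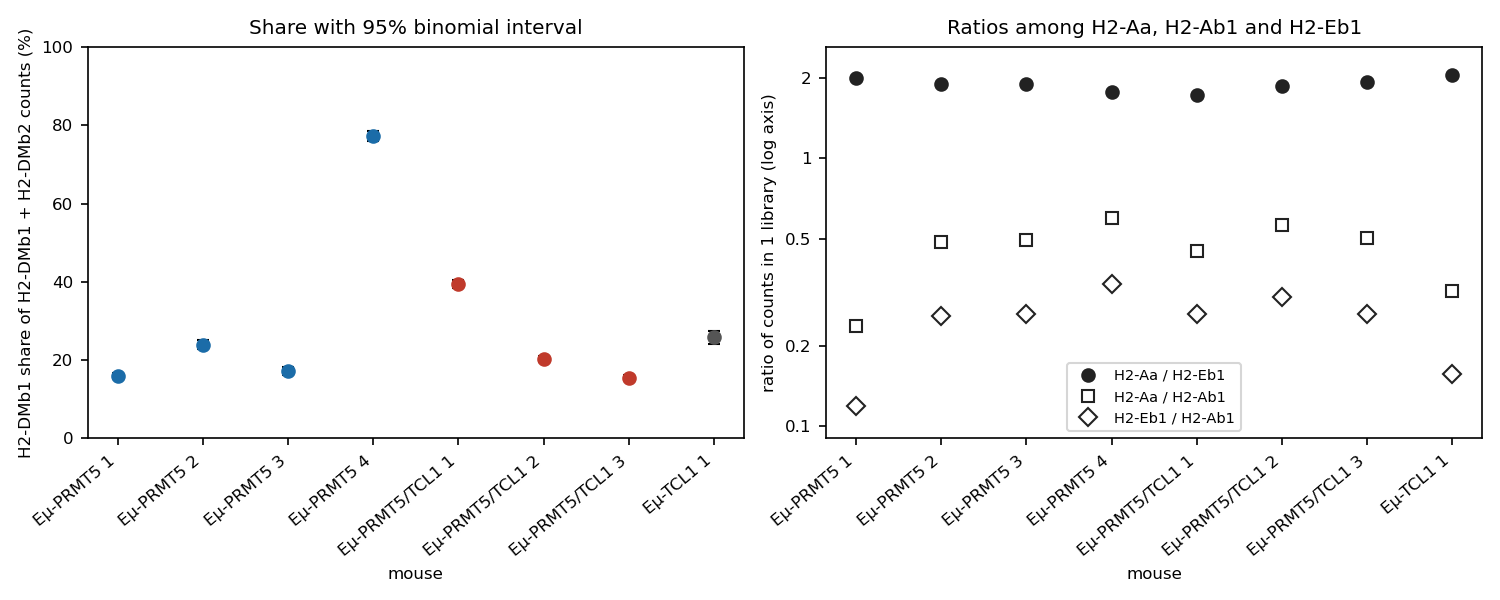
Left, share of H2-DMb1 in the summed H2-DMb1 and H2-DMb2 counts of each mouse (percent, points coloured by genotype, bars the exact 95% binomial interval, which covers counting error only). Right, ratios of counts within each library on a log axis. H2-DMb1 reaches 77.3% in Eµ-PRMT5 mouse 4 alone, and H2-Aa over H2-Eb1 stays near 2 where both ratios to H2-Ab1 drop in the Eµ-TCL1 mouse and in Eµ-PRMT5 mouse 1.

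Cd74, the invariant chain, measured 11042, 17946, 16568 and 9019 CPM in Eµ-PRMT5 mice 1 to 4, 13998, 20334 and 18137 with TCL1 added, and 9430 with TCL1 alone. The Eµ-PRMT5/TCL1 mice all lay above the Eµ-TCL1 mouse and within or above the range of the Eµ-PRMT5 mice. Ciita, which switches the module on, measured 244, 308, 295 and 86.1 CPM in Eµ-PRMT5 mice 1 to 4, 168, 198 and 269 with TCL1 added, and 180 with TCL1 alone. Its order differed from that of the chains, with 3 of the 4 Eµ-PRMT5 mice above 2 of the 3 Eµ-PRMT5/TCL1 mice. The 3 genotypes overlapped, and Cd74 counts per Ciita count ran from 45.3 in Eµ-PRMT5 mouse 1 to 105 in Eµ-PRMT5 mouse 4.

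H2-DMa, the alpha chain of the H2-DM exchanger, was the 1 gene of the 10 whose values did not overlap between the Eµ-PRMT5/TCL1 and the Eµ-PRMT5 mice. It measured 315, 285, 559 and 268 CPM in Eµ-PRMT5 mice 1 to 4, 611, 616 and 708 with TCL1 added, and 323 with TCL1 alone. Eµ-PRMT5 mouse 3 came nearest to the Eµ-PRMT5/TCL1 mice, and the other 3 were near the Eµ-TCL1 mouse. Of the annotated exon bases of H2-DMa, 360 (10.4%) lie opposite those of Brd2, a chromatin reader that measured 306 to 938 CPM. Whether strand entered the counting is not stated, and without it reads within these shared bases cannot be told apart.

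The beta chain of H2-DM comes from the copies H2-DMb1 and H2-DMb2, and these diverged. H2-DMb2 measured 1347, 756, 998 and 101 CPM in Eµ-PRMT5 mice 1 to 4, 845, 1261 and 1508 with TCL1 added, and 578 with TCL1 alone. H2-DMb1 measured 256, 238, 206 and 345 CPM, then 549, 320 and 276 CPM, and 201 CPM in the same order. H2-DMb2 was thus the more counted copy in 7 mice, and H2-DMb1 in Eµ-PRMT5 mouse 4. Its share of the counts of both copies was 77.3% there (exact 95% binomial interval 75.9 to 78.6%), 39.4% (38.3 to 40.4%) in Eµ-PRMT5/TCL1 mouse 1 and between 15.5 and 25.8% in the other 6 mice.

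Of the 1629 different 50-base stretches of annotated H2-DMb1 transcripts, 22.7% also occur in H2-DMb2. The reads that the study describes are longer and paired, so this is not the share of reads that match both copies. The division of reads between the copies is therefore uncertain to a degree that was not measured, and reads without molecular identifiers are not independent molecules. The mice with the highest and the second-highest share also had the highest sums of the 10 macrophage and monocyte markers. These summed to 3617 CPM in the former (Eµ-PRMT5 mouse 4) and to 7085 CPM in the latter (Eµ-PRMT5/TCL1 mouse 1), against 887 to 2481 CPM in the other 6. Of the 10 markers, 6, 8 and 9 had a value in Eµ-PRMT5 mice 1, 2 and 3, and markers without a value were left out of the sum. A single gene, Lyz2, made up most of each sum, at 2865 and 6224 CPM in that order and 708 to 2092 CPM elsewhere. The complement gene C1qb, made by macrophages, was at 316 and 29.7 CPM in that order and at most 40.5 CPM elsewhere, with no value in Eµ-PRMT5 mouse 1. The same mice had the highest sums of neutrophil markers (5306 and 9178 CPM, against at most 5121 CPM) and of erythroid markers (375 and 344 CPM, against at most 99.4 CPM). The part of other cells in the share was not tested.

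H2-Oa and H2-Ob encode the alpha and beta chains of H2-O, the inhibitor of H2-DM, and they did not move as a pair. H2-Oa measured 21.3, 38.8, 77.3 and 12.9 CPM in Eµ-PRMT5 mice 1 to 4, 54.1, 89.6 and 96.8 with TCL1 added, and 10.003 with TCL1 alone. The Eµ-TCL1 mouse was the lowest of the 8, and only Eµ-PRMT5 mouse 3 reached the range of the Eµ-PRMT5/TCL1 mice. H2-Ob measured 544, 489, 364 and 74.7 CPM, then 267, 338 and 456 CPM, and 344 CPM. Its value in the Eµ-TCL1 mouse lay inside the range of both other genotypes, and the ratio of H2-Oa to H2-Ob counts ran from 0.029 in that mouse to 0.265 in Eµ-PRMT5/TCL1 mouse 2. Of the exon bases of H2-Oa, 22.8% lie opposite those of BC051537, a transcript of at most 2.51 CPM in the 8 libraries.

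The first comparison sets mice with both transgenes against mice with PRMT5 alone. Age is not labelled and cell type markers differed between mice, so genotype cannot be told apart from age, disease stage or cell content. In Eµ-PRMT5/TCL1 against Eµ-PRMT5 mice, 8 of the 10 genes had a log2 fold change above 0, as had 40.6% of all genes tested, and their median was 0.54 against -0.09 for all genes. No member passed an adjusted p of 0.05 in edgeR's quasi-likelihood test with Benjamini-Hochberg adjustment, as was true of all genes (0% in either direction), while at an unadjusted p of 0.05 edgeR placed 0.957% of them (126, H2-DMa included) higher and 1.21% (160) lower. DESeq2 called 0.0228% of genes higher and 0.00761% lower at an adjusted p of 0.05, and none of them was a member. Its unadjusted p put 1.11% of genes higher, with H2-DMa and H2-Oa, and 1.89% lower. H2-DMa had the lowest unadjusted p of the 10, with a log2 fold change of 0.86 (SE 0.36, adjusted p = 1.00 from the quasi-likelihood test of edgeR with Benjamini-Hochberg adjustment). The Eµ-PRMT5/TCL1 mice all lay above the Eµ-PRMT5 mice for that 1 gene of the 10, and for 1.35% of all genes. H2-Oa had the largest log2 fold change, 1.10 (SE 0.53), and Ciita and H2-Ob were at -0.14 (SE 0.43) and -0.06 (SE 0.54).

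Without Eµ-PRMT5 mouse 4, the median of the 10 genes was 0.27, and H2-DMb1 joined H2-DMa as a gene without overlap, beside 5.50% of all genes. H2-Ab1 was then at -0.027 on the log2 scale, against 0.25 with that mouse. With counts scaled to the 10 B cell markers of each library, a scaling chosen after seeing the data, the median was 0.16. For H2-DMa the log2 fold change was between 0.74 and 1.16 with any 1 mouse left out, and 0.52 with the scaling to B cell markers, where the unadjusted p of edgeR was 0.524. Its unadjusted p in edgeR was 0.105 at most with a mouse left out.

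**Figure D3:**
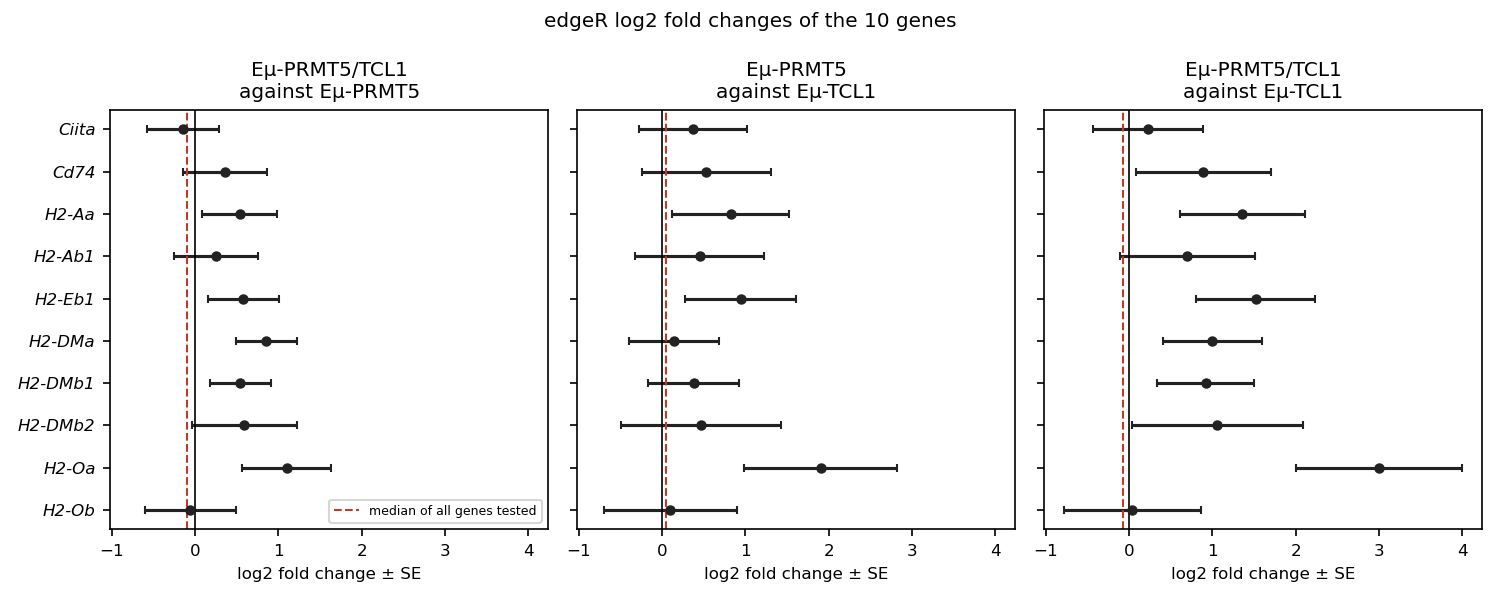
Log2 fold change ± standard error (horizontal axis) of each of the 10 genes in the 3 comparisons of edgeR, with the median of all genes tested as a dashed line. The standard error was derived from the F statistic of the test. H2-Oa lies farthest to the right in each panel, at 1.10, 1.90 and 3.00, and H2-Ob close to 0 in each.

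The other comparisons set each PRMT5 genotype against the single Eµ-TCL1 mouse, so that they ask only whether that mouse departs from the spread seen among replicates, and the 3 comparisons share their groups. In Eµ-PRMT5 against Eµ-TCL1, all 10 genes lay above a log2 fold change of 0, as did 51.9% of all genes, with a median of 0.46 against 0.04 for all genes. The range was from 0.10 (SE 0.80) for H2-Ob to 1.90 (SE 0.92) for H2-Oa. All 4 Eµ-PRMT5 mice lay above the Eµ-TCL1 mouse for 3 genes (H2-Eb1, H2-DMb1 and H2-Oa), beside 17.9% of all genes, and without Eµ-PRMT5 mouse 4 the other 3 did for 9, beside 21.8%. No member passed the adjusted threshold of edgeR (0% of all genes) or of DESeq2, which called 0.0304% of genes higher and 0.107% lower. Unadjusted at 0.05, edgeR had 1.96% of genes above and 4.82% below the Eµ-TCL1 mouse, and none was a member. This balance turned round with DESeq2, which had 4.92% higher, H2-Oa among them, and 3.65% lower. It also did so with NA counted as 0 (487 and 412 genes) and without Eµ-PRMT5 mouse 1 (594 and 482 genes), both in edgeR.

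In Eµ-PRMT5/TCL1 against Eµ-TCL1, the 10 genes were again all above 0, as were 46.6% of all genes, and their median was 0.96 against -0.07 for all genes. For 8 of the 10 genes all 3 Eµ-PRMT5/TCL1 mice lay above the Eµ-TCL1 mouse, as for 27.6% of all genes, with Ciita and H2-Ob as the exceptions. The log2 fold change was 3.00 (SE 1.00) for H2-Oa (2.84 to 3.22 with a mouse left out), 1.52 (SE 0.71) for H2-Eb1 and 1.36 (SE 0.75) for H2-Aa. None of the 10 passed the adjusted threshold of edgeR (0% of genes), whose Benjamini-Hochberg adjusted p was 0.778 for H2-Oa, or that of DESeq2 (0.0685% of genes higher and 0.0533% lower). Without adjustment, at 0.05, edgeR placed H2-Oa among the 1.75% of genes that were higher, while 4.33% were lower. DESeq2 placed 3 members (H2-Aa, H2-Eb1 and H2-Oa) among 3.62% of genes higher and had 3.46% lower, and edgeR with NA counted as 0 had 403 genes higher and 313 lower, so that the balance over all genes depends on the setting.

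The mean of the 10 genes was taken as their common profile. Each gene enters that mean, so its distance from it cannot test whether the genes move together. Relative to each gene's mean over the 8 mice, the mean of the 10 on the log2 scale was lowest at -1.20 in mouse 4 of Eµ-PRMT5, then at -0.60 in the Eµ-TCL1 mouse, and between -0.032 and 0.55 in the others. Eµ-PRMT5 mouse 4 had the lowest value of all 8 in 7 genes and the Eµ-TCL1 mouse in the other 3. The share of all genes tested for which each of these mice was lowest was not counted, so these counts cannot be read as particular to the 10 genes. H2-Aa, Cd74 and H2-Ab1 stayed nearest to the common profile, with a root mean square difference of 0.24, 0.26 and 0.27 on the log2 scale, and H2-Oa, H2-DMb2 and H2-DMb1 were farthest from it at 0.73, 0.71 and 0.70. The SD of H2-Oa (1.27) and H2-DMb2 (1.25) over the 8 mice was at the 94.4th and 94.0th percentile of all genes tested, on the log2 scale, whereas that of Cd74 (0.46) was at the 27.6th. Without Eµ-PRMT5 mouse 4, the SD of H2-DMb2 (0.50) was at the 38.9th percentile and that of H2-Oa (1.196) at the 93.2nd. The distances from the common profile of the other 7 mice were then smallest for Cd74 (0.15) and H2-Aa (0.24) and largest for H2-Oa (0.77), with H2-DMb2 at 0.34 and H2-DMb1 at 0.45.

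**Figure D4:**
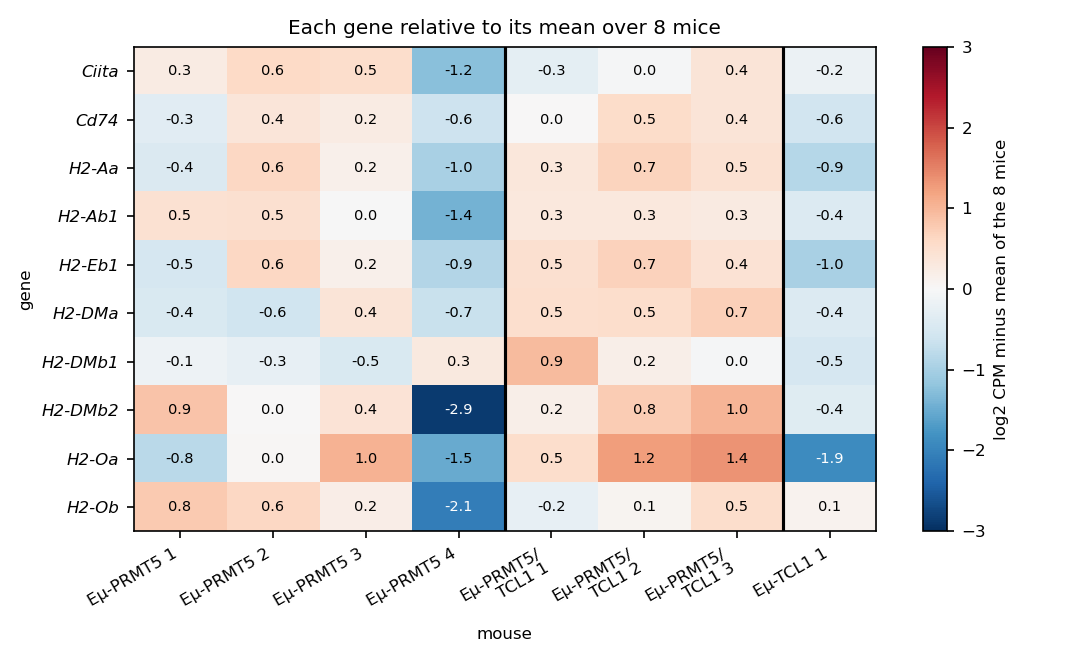
Log2 CPM of each gene (rows) in each mouse (columns) minus its mean over the 8 mice, with vertical lines between the genotypes. Most genes are low in the Eµ-TCL1 mouse and in Eµ-PRMT5 mouse 4 and high in the Eµ-PRMT5/TCL1 mice, while H2-DMb1 is above its mean in Eµ-PRMT5 mouse 4.

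Among the other genes tested, the 5 whose profile was nearest to the mean of the 10 were Cd2, Stk10, Rusc1, Cxx1a and Dennd4b, with root mean square differences of 0.25, 0.26, 0.27, 0.30 and 0.30 on the log2 scale over 8 mice. The median was 0.99 over the 6740 genes that varied at least as much as the mean of the 10. Cd2, an adhesion receptor of lymphocytes, ran from 113 to 524 CPM and the kinase gene Stk10 from 77.0 to 289 CPM, while Cxx1a reached at most 2.72 CPM. None of these 5 was among the nearest 5 without Eµ-PRMT5 mouse 4, which were the ribosomal protein genes Rpl9, Rplp0, Rps16, Rpl4 and Fau (0.092 to 0.11 on the log2 scale over 7 mice, median 0.77 over 10213 genes). The nearest genes with 8 mice therefore rest on that mouse. With 8 mice, Cd2 and Stk10 were about as near to the mean as H2-Aa (0.24) and Cd74 (0.26). Without Eµ-PRMT5 mouse 4, all these ribosomal protein genes lay nearer to it than any of the 10, the nearest being Cd74 (0.15).

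The levels of cell type markers stand beside this profile. The 10 genes summed to 13293 CPM in Eµ-PRMT5 mouse 4, 16298 CPM in the Eµ-TCL1 mouse and 22541 to 34075 CPM in the others. Divided by the sum of the B cell markers, they gave 5.61 in Eµ-PRMT5 mouse 4, 2.87 to 6.36 in the other Eµ-PRMT5 mice, 3.07 to 5.96 among Eµ-PRMT5/TCL1 mice and 2.89 in the Eµ-TCL1 mouse. Cd74 makes up most of this sum, and single genes differed. Over the B cell markers, Eµ-PRMT5 mouse 4 was inside the range of its group for 5 genes. It was below mice 1 to 3 for H2-DMb2 (0.043 against 0.121 to 0.172) and H2-Ob (0.032 against 0.044 to 0.099). It was above them for H2-DMb1 (0.146 against 0.025 to 0.048), H2-DMa (0.113 against 0.040 to 0.068) and Cd74 (3.81 against 1.41 to 3.64). None of the 10 B cell markers passed the adjusted test of edgeR in any comparison. At an unadjusted p of 0.05, Fcer2a (CD23) was lower with both transgenes than with PRMT5 alone (2.64 against 18.0 CPM, or 11.2 CPM without Eµ-PRMT5 mouse 3) and Cd37, a tetraspanin of B cells, was higher in Eµ-PRMT5/TCL1 mice than in the Eµ-TCL1 mouse (773 against 221 CPM).

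Dendritic cells carry much class II, and their 10 markers were low. They summed to 44.3 to 127 CPM in Eµ-PRMT5 mice, 58.9 to 112 with TCL1 added and 94.9 with TCL1 alone, led by Zbtb46, Flt3 and Itgax. A marker without a value in a library was left out of its sum, so that from 5 (Eµ-PRMT5 mouse 1) to 10 markers were summed. The lowest sum was that of Eµ-PRMT5 mouse 4, over 8 markers. Clec9a had a value in 3 of the 8 libraries. Macrophage and monocyte markers summed to 1061 to 3617, 887 to 7085 and 1052 CPM in the 3 genotypes, and at an unadjusted p of 0.05 Cd14 was higher with both transgenes than with PRMT5 alone (192 against 46.4 CPM in the mean, at 399, 169 and 9.07 CPM against 12.1 to 70.0 CPM) and Mertk lower in them than in the Eµ-TCL1 mouse (5.65 against 28.4 CPM). Eµ-PRMT5/TCL1 mouse 3 thus lay below all Eµ-PRMT5 mice in Cd14, and without mouse 1 the mean of the other 2 was 89.1 CPM. Neutrophil markers summed to 425 to 5306, 652 to 9178 and 599 CPM, with Mpo at 1718 CPM in Eµ-PRMT5/TCL1 mice against 393 with PRMT5 alone and 109 with TCL1 alone. That mean rests on mouse 1 (3498, 1476 and 181 CPM in mice 1 to 3, or 828 CPM without it), and mouse 3 lay inside the Eµ-PRMT5 range of 51.8 to 997 CPM, whose mean was 191 CPM without mouse 4. Prtn3, another granule protease, was at 176 CPM in Eµ-PRMT5/TCL1 mice (80.0 CPM without mouse 1), and 4.60 CPM with TCL1 alone. The part of such cells in the class II values was not tested.

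**Figure D5:**
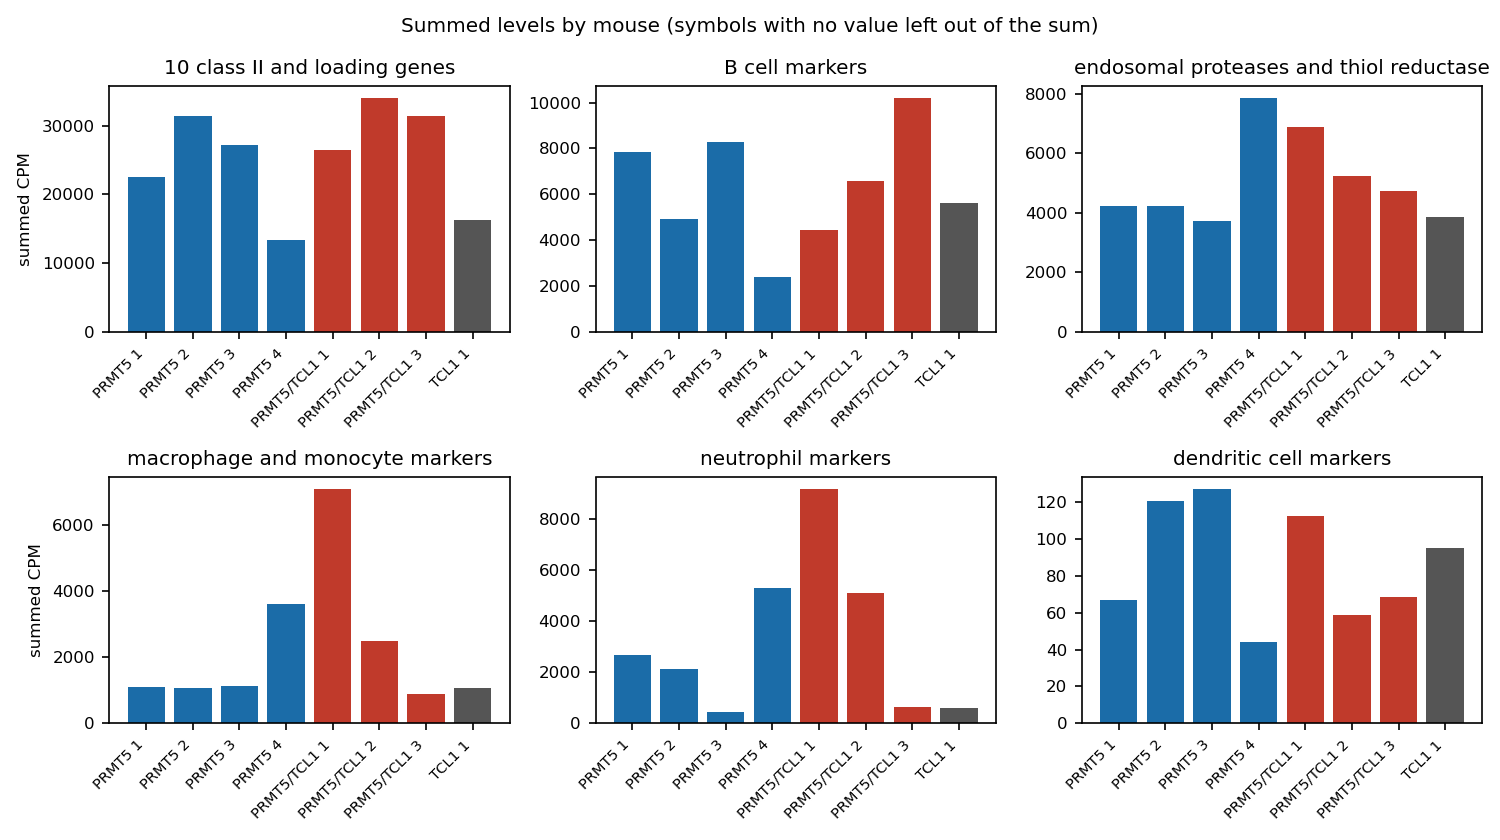
Summed CPM in each mouse (bars from 0, coloured by genotype) of the 10 class II and loading genes, the endosomal proteases, and the markers of B cells, macrophages and monocytes, neutrophils and dendritic cells. Symbols with no value in a library are left out of its sum. Eµ-PRMT5 mouse 4 has the lowest bar for the 10 genes, B cells and dendritic cells, and the highest for the proteases (7865 CPM).

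Upstream of the module, 0 of 9 genes of the factors that bind it passed an adjusted or an unadjusted p of 0.05 in edgeR in any comparison. The most counted were the coactivators Crebbp (125 to 713 CPM over the 8 mice) and Ep300 (119 to 227 CPM), and the NF-Y subunit Nfyc (58.2 to 96.5 CPM). Of 10 genes known to act on Ciita, 0 passed an adjusted p of 0.05 in any comparison. At an unadjusted p of 0.05, Spi1 (PU.1), also a factor of myeloid cells, was higher with both transgenes than with PRMT5 alone, at a log2 fold change of 1.21 (SE 0.41, 342 against 148 CPM), although the groups overlapped. The interferon regulatory factor Irf1 was higher in both PRMT5 genotypes than in the Eµ-TCL1 mouse (175 and 199 against 54.3 CPM). Prdm1, a repressor of Ciita in plasma cell differentiation, was lower in both of them than in that mouse, at 59.4 and 42.1 against 210 CPM.

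The proteases that cut Cd74 and antigen, with the thiol reductase Ifi30, had 0 of 10 genes past an adjusted p of 0.05 in each comparison of edgeR. Their sum was highest in Eµ-PRMT5 mouse 4, at 7865 CPM against 3736 to 6874 CPM elsewhere. For that mouse this was the reverse of the class II genes, whereas the Eµ-TCL1 mouse was low in both sums (3857 and 16298 CPM). Ctss, the protease that degrades the invariant chain in B cells, was at 1140 CPM in Eµ-PRMT5 mouse 4 and 274 to 724 CPM in the others. Ifi30 was higher in Eµ-PRMT5/TCL1 mice (46.5 CPM) than in the Eµ-TCL1 mouse (6.49 CPM) at an unadjusted p of 0.05. H2-Eb2, another class II beta gene, measured 2.88 to 16.5 CPM and was not past an unadjusted p of 0.05. H2-Ea-ps, the inactive alpha gene of I-E in C57BL/6 mice, measured at most 15.8 CPM and had no value in Eµ-PRMT5/TCL1 mouse 1. The ubiquitin ligases that turn class II over, Marchf1 and Marchf8, could not be matched, because dates stand in place of such symbols.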

How the data were processed

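Bulk RNA-seq of splenic B cells of 8 mice was used. The deposited values are unnormalized read counts, 1 column a mouse and 1 row a symbol, which the authors made without pooling. Processing notes in the labels name GRCm38, Subread, featureCounts and DESeq2 1.20.0. The study's methods describe low-input preamplification and the CLEAR workflow, while the labels describe a stranded kit at greater depth. Strand use and the meaning of the 36919 cells holding NA are not given in the sources used here.

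NA was not read as 0 in the tests, and the 14072 symbols with a value in every library were kept. In sums over a list, a symbol with NA in a library was left out, so a sum can cover fewer genes in some mice. edgeR 4.0.16 (R 4.3.3) was run with TMM factors, filterByExpr by group, 1 model over 3 groups and the quasi-likelihood test, with Benjamini-Hochberg adjustment over 13173 genes at 0.05. The SE of a log2 fold change was its absolute value divided by the square root of the F statistic of the quasi-likelihood test. With 1 Eµ-TCL1 mouse, the spread comes from the other groups. The p-values weigh a difference between groups against that spread, and none was seen within Eµ-TCL1. CPM is relative to TMM-scaled library size, and log2 CPM uses a prior count of 2. The code was tested on simulated data. Gene positions, lengths and shared stretches are from GENCODE vM21 (GRCm38) and promoters from RefSeq (GRCm38.p6), read with Python 3.11.15.

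Groups follow the labelled genotype. The 10 genes and all lists were chosen with earlier results of these data known. Named genes are the 10, list genes with an unadjusted p under 0.05 or else the 3 most counted, and the 5 nearest profiles, with a few more named for their levels after their values were seen. Lists covered class II factors, Ciita regulators, endosomal proteases, class II turnover, other class II genes, and markers of B, dendritic, macrophage, T, neutrophil, erythroid and plasma cells. Alternatives were DESeq2 1.42.0, RLE factors, library size only, the 10 genes left out of the scaling, NA as 0, a floor of 10 counts per library, no filter, only the groups compared, longest transcripts, a replicate block and each mouse left out, and scaling to B cell markers, the spread and profile without Eµ-PRMT5 mouse 4 and marker means with a mouse left out were added after seeing the data. High counts carry little counting error, and intervals cover counting error only.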

Additional observations from a re-analysis of the deposited data

Results flagged for a closer look

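In 6 of 31 values examined, 1 Eµ-PRMT5 mouse stood apart from the other 3 by a gap that was most of the range of the group. Chance alone gives such a gap in about 1 in 20 groups of 4, and the values share mice and genes.

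H2-DMa was high in Eµ-PRMT5 mouse 3 (559 CPM against 268 to 315 CPM), with a gap of 0.838 of the range. The T cell markers were also high in that mouse (389 CPM against 77.3 to 118 CPM, gap 0.870), and whether the T cell markers bear on H2-DMa was not tested. In Eµ-PRMT5 mouse 4, the ratio of H2-DMb1 to H2-DMb2 counts was 3.40 against 0.190 to 0.315 (gap 0.961), and the share of H2-DMb1 in the counts of both copies was 77.3% against 16.0 to 23.96% (gap 0.870). The endosomal proteases (7865 against 3736 to 4222 CPM, gap 0.882) and the macrophage and monocyte markers (3617 against 1061 to 1139 CPM, gap 0.970) were also high in mouse 4. All 10 macrophage and monocyte markers had a value in mouse 4, and 6, 8 and 9 of them in mice 1, 2 and 3.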

How the results depend on the processing

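The counts of genes past an adjusted p of 0.05 were 0 in every comparison of edgeR and under each of its alternatives, leaving out each mouse in turn included (0 to 0). DESeq2 called 3 genes higher and 1 lower in Eµ-PRMT5/TCL1 against Eµ-PRMT5, 4 and 14 in Eµ-PRMT5 against Eµ-TCL1, and 9 and 7 in Eµ-PRMT5/TCL1 against Eµ-TCL1, and the cause was not tested. The median of the 10 genes stayed above 0 in every setting run, between 0.27 and 0.55, 0.40 and 0.71, and 0.90 and 1.09 on the log2 scale with a mouse left out. Of 500 values of single genes under alternatives, 482 kept their direction and none crossed the threshold. Reversals were the following log2 fold changes. Cd74 was at -0.023 in Eµ-PRMT5/TCL1 against Eµ-PRMT5 when scaled to B cell markers, and with a mouse left out Ciita ran from -0.42 to 0.023, H2-Ab1 from -0.027 to 0.45 and H2-Ob from -0.40 to 0.22. In Eµ-PRMT5 against Eµ-TCL1, H2-DMa was at -0.055 and H2-Ob at -0.13 with library size only, H2-Ob was at -0.00025 when scaled to B cell markers, and with a mouse left out they ran from -0.16 to 0.30 and from -0.071 to 0.44. In Eµ-PRMT5/TCL1 against Eµ-TCL1, H2-Ob was at -0.18 with library size only and -0.23 when scaled to B cell markers, where Ciita was at -0.026, and with a mouse left out H2-Ob ran from -0.19 to 0.21. With a mouse left out of a comparison with 1 mouse on one side, that mouse is assumed to vary like the other groups.

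With the replicate block over mice 1 to 3 of both genotypes, 0 genes passed in either direction, the median of the 10 genes was 0.30 and H2-Ab1 was at -0.014. Deviations of same-numbered mice correlated at 0.021, 0.106 and 0.162 across genes, 1 of them under 0.1. Mice 2 and 3 of each genotype correlated best with their own number in the other genotype, whereas mouse 1 correlated best with mouse 2. Deviations from a mean of 3 mice cannot tell whether same-numbered mice were paired or shared a batch. At an unadjusted p of 0.05, 495 genes were higher and 331 lower with the block, against 742 in all without it. Genes higher and lower at that p in Eµ-PRMT5/TCL1 against Eµ-PRMT5 numbered 424 and 347 with mouse 3 of Eµ-PRMT5 left out, and 392 and 368 with its mouse 4 left out. Levels per kilobase moved past their SD in 15 of 30 cases with the longest transcript. Depth limits H2-Oa most, at 37 counts in the Eµ-TCL1 mouse.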

Other observations

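Plasma cell genes differed between mice in another pattern than the class II genes. Their 7 genes summed to 1240 to 6053 CPM in Eµ-PRMT5 mice, 781 to 3486 with TCL1 added and 2541 with TCL1 alone, and 0 passed an adjusted p of 0.05 in edgeR in any comparison. At an unadjusted p of 0.05, Sdc1 (CD138) and Xbp1, the factor of the secretory program, were lower with both transgenes than with PRMT5 alone (18.3 against 103 CPM, and 397 against 1006 CPM, or 9.64 CPM for Sdc1 without Eµ-PRMT5/TCL1 mouse 3 and 591 CPM for Xbp1 without Eµ-PRMT5 mouse 1), and Tnfrsf17 (BCMA) was lower in Eµ-PRMT5 and Eµ-PRMT5/TCL1 mice (15.7 and 13.1 CPM) than in the Eµ-TCL1 mouse (63.0 CPM). Jchain ran from 29.2 CPM in Eµ-PRMT5 mouse 4 to 3057 CPM in Eµ-PRMT5 mouse 1.

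T cell markers measured in the matrix (7 of 10) summed to 63.3 to 389 CPM, and Cd3e and Cd3d were lower with both transgenes than with PRMT5 alone at an unadjusted p of 0.05 (7.93 against 23.3 CPM, and 2.89 against 16.8 CPM). Without Eµ-PRMT5 mouse 3 the Eµ-PRMT5 means were 12.6 and 7.55 CPM. Erythroid markers summed to 21.4 to 375 CPM, and Hba-a2 was at 23.4 and 34.5 CPM in Eµ-PRMT5 and Eµ-PRMT5/TCL1 mice against 1.62 CPM in the Eµ-TCL1 mouse, or 12.4 without Eµ-PRMT5 mouse 4 and 14.1 without Eµ-PRMT5/TCL1 mouse 1. None of either list passed an adjusted p of 0.05 in edgeR.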
